A study of Mus musculus with 5 samples.

Results

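Ribosome-protected mRNA fragments (footprints) were examined for 8 receptors and surface proteins by which microglia, the resident macrophages of the brain, are recognised. These are Csf1r, P2ry12, Cx3cr1, Tmem119, Trem2, Itgam, Selplg and Gpr34. They were found by gene symbol, and 8 of 8 had a row in the authors' count table of 10329 genes. The mice were male, wild type and of the strain C57BL/6N, aged 28 to 35 days, and acute slices of hippocampus with cortex were cut from them. Slices of 400 µm recovered for 3 to 4 h and were then exposed to 20 µM homoharringtonine (HHT) for 0, 5, 10, 30 or 60 min. The vehicle named in the labels was 0.05% DMSO. Each of the 5 groups was 1 pool of 10 slices from 2 to 3 mice, so no group had a replicate. Libraries of vehicle alone at later times, libraries of Fmr1 KO slices and mRNA levels were not analysed here. HHT time, vehicle time, time after slicing and a change in the mRNA itself therefore cannot be told apart in these values. In a slice with mixed cells, fewer cells of a type and less RNA per cell cannot be told apart either.

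Microglia survive in the adult brain through signalling of the receptor tyrosine kinase Csf1r, and they extend their processes toward released nucleotides through P2ry12. They receive the neuronal ligand fractalkine through Cx3cr1 and sense lipids and apolipoproteins through Trem2. HHT acts on ribosomes that have just begun translation, while ribosomes already elongating move on and leave the mRNA. Footprints are lost as ribosomes run off, and a long coding sequence (CDS) takes longer to empty than a short one.

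Total counts per library lay between 1346175 (60 min) and 7155147 (0 min). The labelled tissue was checked against marker lists in the authors' second table, of TPM rounded to whole numbers. The summed TPM of 10 neuronal markers was 6131 to 7280 over the 5 libraries, and that of the 8 members was 48 to 222. Ccr2, Cd79a, Ms4a1 and Mpo, markers of blood leukocytes, were listed at a TPM of 0 in every library. So was Snap25, an abundant neuronal mRNA, so a value of 0 in that table does not show that an mRNA or a cell type was absent. The 11 border macrophage markers with a TPM row summed to 27 at 0 min and 8 to 17 at the later times, with Siglec1, Cd209f and Clec10a at 0 at 0 min.

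The members lie on 7 chromosomes (GRCm38.p6, the assembly behind mm10). Tmem119 (chromosome 5, 113793729 to 113800396) and Selplg (chromosome 5, 113817798 to 113832528) are neighbours 17401 bases apart. P2ry12 lies on chromosome 3 (59216271 to 59262985), Itgam on 7 (128062640 to 128118491), Cx3cr1 on 9 (120048683 to 120068296), Trem2 on 17 (48346401 to 48352276), Csf1r on 18 (61105572 to 61131139) and Gpr34 on X (13622650 to 13640859). RefSeq promoter windows (250 bases before to 50 after the start site, GRCm38.p6) were at hand for 4 members. They were searched on both strands for AGGAAG, a core that the myeloid transcription factor PU.1, product of Spi1, is known to bind. It was found in 3 of the 4 windows, P2ry12, Itgam and Trem2, and in 35.4% of all 32851 windows of that length. A match is a description of the letters and no measure of binding. The windows of P2ry12 and Itgam are shown as those of a short and a long member; Spi1 itself is described with the transcription factors. Capitals mark AGGAAG or its reverse complement.
P2ry12, chr3:59262936-59263235, minus strand: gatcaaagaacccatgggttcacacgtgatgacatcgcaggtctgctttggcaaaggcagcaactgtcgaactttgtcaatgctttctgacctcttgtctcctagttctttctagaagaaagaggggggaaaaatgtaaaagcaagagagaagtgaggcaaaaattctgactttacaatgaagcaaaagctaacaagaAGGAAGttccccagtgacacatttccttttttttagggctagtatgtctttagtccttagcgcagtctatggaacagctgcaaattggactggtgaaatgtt
Itgam, chr7:128062390-128062689, plus strand: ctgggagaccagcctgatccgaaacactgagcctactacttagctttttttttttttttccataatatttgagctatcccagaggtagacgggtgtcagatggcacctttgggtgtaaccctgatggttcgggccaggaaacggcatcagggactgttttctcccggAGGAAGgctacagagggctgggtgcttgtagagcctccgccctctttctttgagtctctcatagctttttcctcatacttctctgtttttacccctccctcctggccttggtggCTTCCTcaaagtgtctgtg

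Before HHT, the 8 mRNAs differed widely in footprint density. The authors' signal, counts per kb of the CDS less 600 nt, was highest for Csf1r at 719 (95% counting interval 685 to 754, from 1677 counts). Intervals here are exact and cover counting error only, since each value comes from 1 library and reads carried no stated molecular identifiers. Trem2, a lipid-sensing receptor, followed at 595 (442 to 785), which rests on 50 counts over 84 nt. Cx3cr1 had 355 (303 to 413), P2ry12 221 (179 to 269) and Selplg, the P-selectin ligand PSGL-1, 164 (134 to 198). Itgam, the CD11b chain of complement receptor 3, had 132 (119 to 146). Tmem119, a transmembrane protein used as a microglial marker, had 78.2 (47.1 to 122), and Gpr34, a lysophosphatidylserine receptor, 77.7 (55.7 to 105). In this order the ratio of neighbours had an interval that included 1 for Csf1r and Trem2 (1.21, 0.911 to 1.63), Selplg and Itgam (1.24, 0.994 to 1.54), and Tmem119 and Gpr34 (1.01, 0.552 to 1.77). The other 4 neighbouring pairs differed beyond counting error. Csf1r lay above 79.4% of the 10329 genes in signal, P2ry12 above 49.9% and Gpr34 above 24.3%. Counts followed another order, because length enters them. Csf1r alone held 66.2% of the 2534 counts of the 8 mRNAs, Itgam had 377 counts, and Tmem119 had 19.

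**Figure D1:**
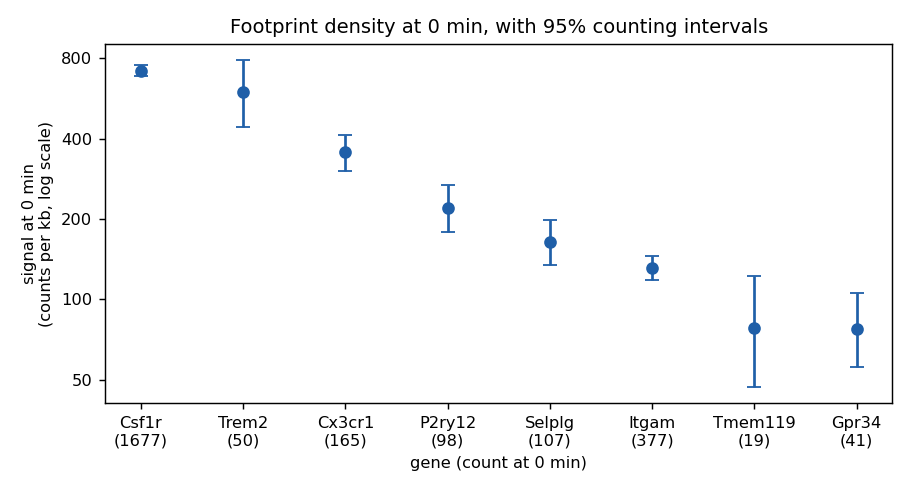
Footprint signal of the 8 members at 0 min in counts per kb of counted CDS (log axis), ordered from high to low; points are single-library values and bars are exact 95% counting intervals, with the count under each name. Csf1r and Trem2 stand highest, and Tmem119 and Gpr34 lowest with intervals that overlap.

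The first question was how much of each member's signal was left after HHT. The median member kept less signal than the median mRNA at each time. Of the single values, only that of Itgam at 5 min (39.8%) lay above the median of all genes. Summed over the 8 genes, counts were 2534, 671, 192, 119 and 106 in time order, which leaves 27.4% (25.2 to 29.9), 9.15% (7.86 to 10.6), 5.33% (4.39 to 6.40) and 4.30% (3.50 to 5.22) of the 0 min signal after the deposited library factors. The median over the 8 members was 10.2%, 9.08%, 5.91% and 4.58%, against 33.3%, 26.8%, 22.3% and 18.1% over the 10329 genes. With the 0 count of Trem2 at 30 min set to 3 counts, the members' median at that time was 6.34%. Without Csf1r the 7 other members kept 5.04% (3.60 to 6.86) at 60 min. As a share of the counts of the 10329 genes the 8 mRNAs went from 354 (340 to 368) CPM at 0 min to 78.7 (64.5 to 95.2) CPM at 60 min. Under 10% of the 0 min signal was left in 3 of 8 members at 5 min, against 2.41% of all genes, and in 5 of 8 at 10 min, against 4.56%. It was left in 7 of 8 at 30 min, against 6.16%, and in 7 of 8 at 60 min, against 11.2%. The 10329 genes include none without a count at 5 min, so the share of 2.41% leaves such genes out. The members and the lists below were chosen with earlier results of these data known. Their contrasts with all genes are therefore descriptions and no independent evidence.

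Csf1r, the receptor for CSF1 and IL-34, had 1677 counts at 0 min and 491, 120, 73 and 64 at 5, 10, 30 and 60 min. Its signal was 30.3% (27.4 to 33.6) of the 0 min value at 5 min and 8.64% (7.12 to 10.4) at 10 min. It stood at 4.94% (3.85 to 6.24) at 30 min and 3.92% (3.01 to 5.03) at 60 min. Between 5 and 10 min 28.5% (23.1 to 34.8) of the signal at 5 min was kept, while the median mRNA of its length kept 67.3%. The members' lowest counting error belongs to Csf1r, and its 4 intervals lie below the medians of the 2073 genes with a CDS of 2000 to under 3000 nt (42.5%, 28.3%, 22.3% and 18.0%). At 60 min 2.06% of all genes had a lower ratio.

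Itgam, the longest member at a CDS of 3465 nt, had counts of 377, 145, 37, 21 and 14. The signal left was 39.8% (32.7 to 48.4), 11.9% (8.22 to 16.6), 6.32% (3.87 to 9.80) and 3.82% (2.07 to 6.48). As for Csf1r, the step from 5 to 10 min was steep: 29.7% (20.1 to 42.9) of the signal at 5 min was kept, against a median of 78.9% over the 894 genes with a CDS of 3000 to under 4000 nt. The medians of that class were 52.9%, 42.0%, 23.8% and 18.9% of the 0 min signal, and the intervals of Itgam lay below each of them.

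P2ry12, the ADP receptor of resting microglia, had 98 counts at 0 min and 2, 5, 7 and 9 at the later times. Its signal was 2.11% (0.253 to 7.84) of the 0 min value, then 6.16% (1.96 to 14.9), 8.10% (3.17 to 17.3) and 9.44% (4.19 to 18.7) in time order. The lowest value came first and each later one was higher, but the 4 intervals overlap. At 5 min 1 of the 10329 genes had a lower ratio, Socs3, a feedback inhibitor of cytokine signalling (64 counts at 0 min and 1 at 5 min), which was looked up after its value was seen. Each of the 10329 genes had at least 1 count at 5 min, so genes without a count at that time are not in this ranking.

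Cx3cr1, the fractalkine receptor, had counts of 165, 9, 13, 8 and 7. The signal left was 5.65% (2.54 to 11.0), 9.51% (4.96 to 16.7), 5.50% (2.34 to 11.1) and 4.36% (1.73 to 9.18). These intervals overlap as well, so most of the loss was in place at 5 min and no later change was detectable at this depth.

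Selplg had counts of 107, 14, 9, 6 and 5, with 13.6% (7.17 to 23.8), 10.2% (4.52 to 20.0), 6.36% (2.28 to 14.3) and 4.80% (1.53 to 11.6) of its signal left. Gpr34 had counts of 41, 4, 2, 1 and 1, with 10.1% (2.63 to 27.9) at 5 min and 2.51% (0.062 to 14.8) at 60 min. Both genes had their highest treated value at 5 min, with overlapping intervals.

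Trem2 had counts of 50, 5, 2, 0 and 3. Its signal was 10.4% (3.22 to 25.8) at 5 min, 4.83% (0.569 to 18.4) at 10 min and 6.16% (1.23 to 19.1) at 60 min. The 0 counts at 30 min allow up to 6.81% when 3 counts in that library are taken as the floor, and the exact interval, which also carries the error of the 50 counts at 0 min, ends at 8.69%.

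Tmem119 stood apart from the other members, within wide limits. It had counts of 19, 1, 4, 3 and 3, and its signal was 5.45% (0.131 to 34.3), 25.4% (6.29 to 76.5), 17.9% (3.39 to 60.8) and 16.2% (3.07 to 55.1). At 10 min it was the 1 member above the median of its length class (20.7%), and at each time its interval included that median. Whether it kept more signal than the others was not detectable at this depth.

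**Figure D2:**
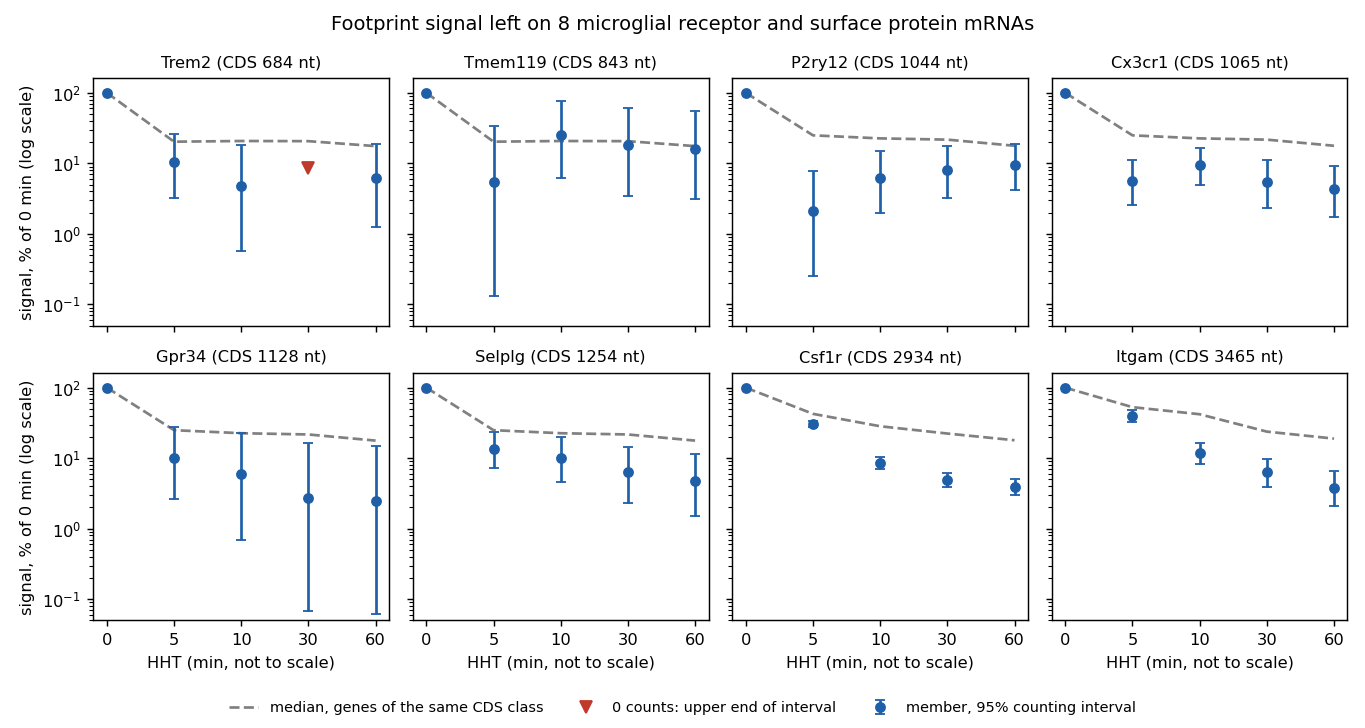
Signal left on each member as percent of its 0 min value (log axis) against time on HHT, with exact 95% counting intervals; the dashed line is the median of genes in the same CDS class, and the triangle is the upper end for the 0 count of Trem2. Csf1r and Itgam stay near 30.3% and 39.8% at 5 min before dropping, while the 6 shorter members lie at or under 13.6% from 5 min on, apart from Tmem119 with 25.4%, 17.9% and 16.2%.

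The next question was whether the time of loss went with CDS length. The 2 members with a CDS over 2000 nt, Csf1r and Itgam, together kept 32.1% (29.3 to 35.1), 9.23% (7.80 to 10.9), 5.19% (4.18 to 6.39) and 3.90% (3.07 to 4.89) at the 4 treated times. The 6 members with a CDS of 684 to 1254 nt together kept 7.55% (5.20 to 10.7), 8.81% (6.06 to 12.4), 5.91% (3.78 to 8.83) and 5.99% (3.94 to 8.77) of 480 counts. The short members were thus already near their later level at 5 min. At 10 min the long members, at 9.23%, were near the 8.81% of the short ones. The long members then fell further, to 5.19% and 3.90%, with both intervals below their interval at 10 min. Members of both kinds kept less than other mRNAs of their length. The number below the median of their class was 7 of 8 at 10 min and 8 of 8 at the other 3 times, and the median by its nature has 50% of genes below it. The whole interval lay below the class median for 5, 6, 7 and 5 of the 8 members in time order, against 16.2%, 19.6%, 19% and 18.3% of the 10329 genes, many of which have lower or higher counts than the members. The others were Tmem119 at each time, Gpr34 at 5 and 10 min, Trem2 at 5 and 60 min, and P2ry12 at 60 min.

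**Figure D3:**
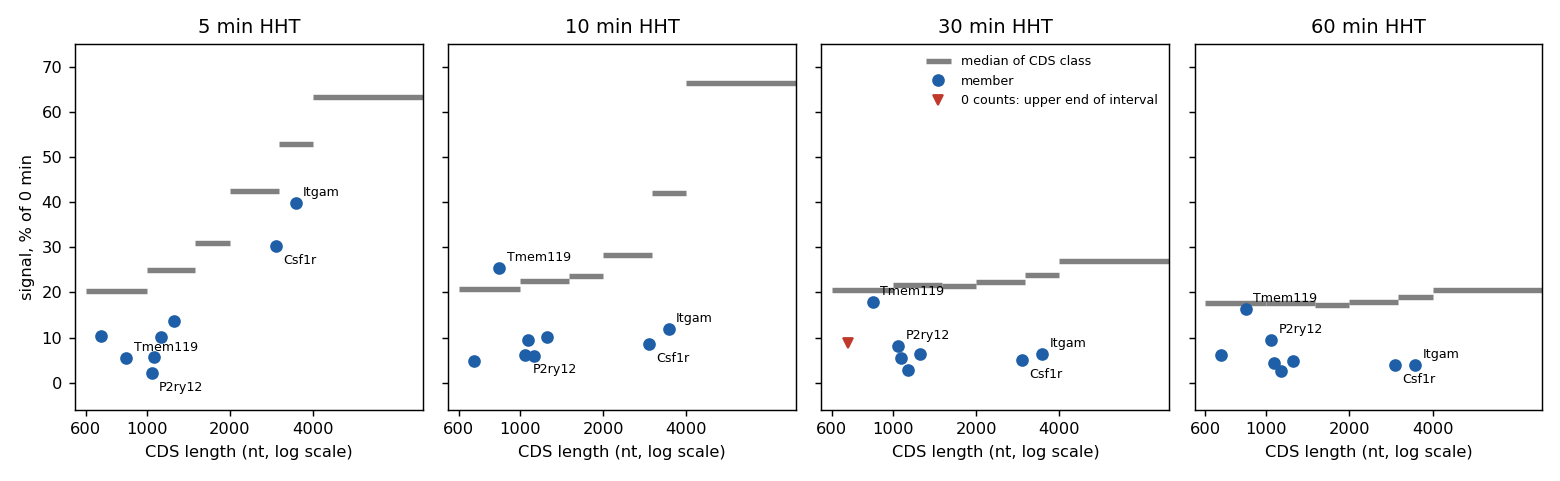
Signal left at 5, 10, 30 and 60 min of HHT (percent of 0 min) against CDS length (log axis) for the 8 members, with the median of all genes in each length class as a grey bar. At 5 min the 8 members lie below their class medians, with Csf1r at 30.3%, Itgam at 39.8% and the 6 shorter members at or under 13.6%. At 60 min Tmem119, at 16.2%, lies near its class median and Csf1r and Itgam lie at 3.92% and 3.82%.

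Change along time was tested over all 5 libraries as a slope on log2(minutes + 1), with the quasi-likelihood test of edgeR and Benjamini-Hochberg adjustment over 9444 genes with a mean of at least 10 counts. Gpr34 and Tmem119 missed that filter. Csf1r and Itgam would pass it on the 4 later libraries alone, whereas P2ry12, Cx3cr1, Trem2 and Selplg passed only through their counts at 0 min, which favours a falling slope for them. On the scale of the deposited library factors, the slope of Csf1r was -0.84 log2 units for each doubling of (minutes + 1), with an SE of 0.085 and an adjusted p = 0.000169. Itgam fell by 0.82 (SE 0.097, adjusted p = 0.000169). In the same fit 94.2% of the genes tested were called lower, so these calls say nothing particular about either gene. The slopes of the 4 other members are given as a description: -0.95 (SE 0.17) for Trem2, -0.81 (SE 0.12) for Cx3cr1, -0.78 (SE 0.11) for Selplg and -0.66 (SE 0.16) for P2ry12. Without the 0 min library, Csf1r and Itgam were the 2 members called lower by edgeR, against 44% of genes. P2ry12 then had a slope of 0.47 (adjusted p = 0.107), and the slopes of Trem2, Cx3cr1 and Selplg were -0.39, -0.18 and -0.44 with no call.

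Relative to other mRNAs most members lay low, but none passed the test. With TMM scaling, which sets the typical gene level, the median log2 fold of the 8 members was -1.48, -1.52, -1.87 and -1.89 at 5, 10, 30 and 60 min, and that of all genes was 0.03, 0.01, -0.01 and -0.01. With the 0 count of Trem2 at its floor, the median at 30 min was -1.76. The long members were not low at 5 min, when the log2 fold was 0.29 for Itgam (0.0054 to 0.57) and -0.10 for Csf1r (-0.25 to 0.04). At least 2-fold lower than at 0 min were 6, 7, 7 and 6 of the 8 members, against 8.29%, 8.28%, 6.98% and 7.76% of all genes. At 60 min the log2 fold was -2.21 for Csf1r (-2.60 to -1.86) and -2.21 for Itgam (-3.14 to -1.49). It was -0.91 for P2ry12 (-2.12 to 0.03), -1.39 for Trem2 (-3.89 to 0.067) and -0.14 for Tmem119 (-2.57 to 1.60), whose intervals include 0. On the TMM-scaled slope 0 of the 6 tested members were called by edgeR, against 0.0106% of genes called lower. The adjusted p was lowest for Csf1r (slope -0.44, SE 0.095, adjusted p = 0.123). Before adjustment, edgeR's p was under 0.05 in the falling direction for Csf1r and Itgam, as for 5.43% of genes. In the rising direction this held for 6.84% of genes and 0 members. Cx3cr1, Trem2 and Selplg also had a falling p under 0.05, and P2ry12 did not. These genes passed the filter only through 0 min, which favours a falling slope, so they are not counted against that share. DESeq2's Wald test called Csf1r (adjusted p = 0.00516) and Itgam (adjusted p = 0.0373) lower, against 0.392% of genes. Limma on TPM called 0 of the 8 members lower, as it did 0% of all genes.

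The partners of these receptors were described next. Of the intracellular and membrane partners listed, 20 of 24 had counts and 14 were tested. Their median signal left was 18.9%, 5.91%, 5.73% and 5.85%, or 18.9%, 11.0%, 8.84% and 6.53% with genes at 0 counts set to 3 counts, and 13 of 14 fell on the deposited scale. Over all genes tested 94.2% fell on that scale, so the 13 say nothing particular about this list. On the TMM-scaled slope 0 were called, against 0.0106% of genes called lower. Before adjustment 9 were lower with p under 0.05, against 5.43% of genes. Some of the 14, such as Itgb2 and Syk, had under 10 counts at each later time. They passed the filter only through 0 min, which favours a falling slope, so no conclusion is drawn from the 9. Itgb2, the CD18 chain that pairs with Itgam, had 77 counts at 0 min and 9, 5, 2 and 3 later, with 4.00% (0.808 to 12.1) left at 60 min, close to the 3.82% of Itgam. Syk, the kinase downstream of Trem2 and its adaptor, had counts of 67, 7, 0, 3 and 2, with 3.07% (0.364 to 11.5) left. Fyb, an adaptor of integrin signalling, had 39 counts at 0 min and 0 at 30 and 60 min. At the other end was Kcnk13, the potassium channel THIK-1, which sets microglial membrane potential. It had counts of 34, 6, 18, 14 and 12, so 63.9% (34.0 to 116) of its signal was left at 10 min and 36.3% (17.1 to 71.8) at 60 min. It was the 1 tested gene of the list with no call on the deposited scale (adjusted p = 0.14). Pik3cd, a PI3-kinase catalytic subunit of blood cells, kept 23.2% (13.7 to 37.6). Tyrobp, the adaptor of Trem2, was not analysed here.

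Ligands of the same receptors, several of which are made by neurons and endothelium, mostly had more signal left. Cx3cl1, the fractalkine of neurons that Cx3cr1 binds, had 9225 counts at 0 min and 2833, 2598, 2707 and 2453 later. It kept 27.3% (26.1 to 28.6) at 60 min, while its receptor kept 4.36%. Il34 had counts of 57, 22, 20, 12 and 15 and kept 27.0% (14.2 to 48.4). Csf1 had 258, 69, 45, 30 and 34 and kept 13.5% (9.18 to 19.4), against 3.92% for Csf1r. Apoe, a Trem2 ligand made by astrocytes and microglia, had 11833 counts at 0 min and kept 11.9% (11.3 to 12.6). A pair of adhesion proteins found on endothelium went to a level as low as that of the members, but later. Selp, P-selectin, to which Selplg binds, kept 72.7%, 68.3% (52.2 to 88.8), 14.8% and 5.74% (2.58 to 11.2) in time order. Icam1, a ligand of the Itgam and Itgb2 pair, kept 40.9%, 25.9%, 5.79% and 3.98% (2.47 to 6.08). Of the 7 genes of this list with counts, which include Tgfb1, a ligand of other receptors, 7 fell on the deposited scale. So did 94.2% of all genes tested. Relative to other mRNAs 0 were called, against 0.0106% of genes called lower. C3, whose fragment binds complement receptor 3, was listed at a TPM of 0 in every library, which, as for Snap25, does not show that it was absent.

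Transcription factors of microglia ranged widely. Spi1, which encodes PU.1 and whose core motif is marked in the promoters above, had 40 counts at 0 min and 4, 1, 1 and 0 later. Runx1 had 22 counts at 0 min and 2, 0, 1 and 0 later. Mef2a, also active in neurons, kept 18.4% (15.2 to 22.1) at 60 min, and Cebpb, a stress-induced factor, 33.6% (25.3 to 44.2). The median over the 9 factors with counts was 15.2% at 60 min.

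Other microglial markers lay between the members and the typical mRNA. Of 27 listed, 20 had counts, with a median of 17.1%, 15.5%, 7.96% and 9.64% left; genes at 0 set to 3 counts bring the values at 10 and 30 min to 16.0% and 9.82%. Of the 16 tested, 16 fell on the deposited scale, as did 94.2% of all genes tested, which says nothing particular about these markers. Relative to other mRNAs 0 were called, against 0.0106% of genes called lower. Before adjustment 8 were lower with p under 0.05, against 5.43% of genes. Some of the 16, such as Laptm5, had under 10 counts at each later time. They passed the filter only through 0 min, which favours a falling slope, so no conclusion is drawn from the 8. Laptm5, a lysosomal membrane protein of blood cells, had 107 counts at 0 min and 9, 7, 3 and 1 later. Fcrls, a microglial Fc receptor-like protein, had 369, 40, 17, 12 and 11, with 3.06% (1.52 to 5.54) left at 60 min. Golm1, a Golgi protein, kept 23.2% (15.3 to 34.2), and P2ry13, an ADP receptor related to P2ry12, had 17 counts at 0 min and 2, 0, 1 and 4 later.

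Genes of reactive microglia also ranged widely, with a median of 14.5% over 10 genes at 60 min. The lowest and highest are named here. The cytokine genes Tnf (118, 6, 0, 1 and 6 counts) and Il1b (114, 4, 4, 2 and 5 counts) kept 5.22% (1.88 to 11.7) and 4.51% (1.44 to 10.8) at 60 min. Spp1, osteopontin, had counts of 102, 40, 30, 48 and 39 and kept 39.3% (26.4 to 57.3), and Lpl, lipoprotein lipase, kept 30.8% (24.9 to 37.9). The border macrophage markers with counts did not share the members' low values, apart from Cd36 with 2 counts at 60 min. Mrc1, the mannose receptor, kept 16.2% (10.1 to 24.7), and Cd163 and Stab1, scavenger receptors, 33.1% (14.5 to 69.4) and 34.2% (21.3 to 53.5). In other cell types the median left at 60 min was 19.2% over 9 neuronal and 10.7% over 10 astrocyte genes. It was 6.83% over 8 oligodendrocyte and 18.2% over 9 endothelial genes, so low values were also found outside the microglial lists. Of the 10 oligodendrocyte genes listed, Mbp and Mobp had no row of counts. Mbp went the other way in TPM, with 6775 at 0 min and 21221, 29850, 22644 and 22887 at the later times.

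**Figure D4:**
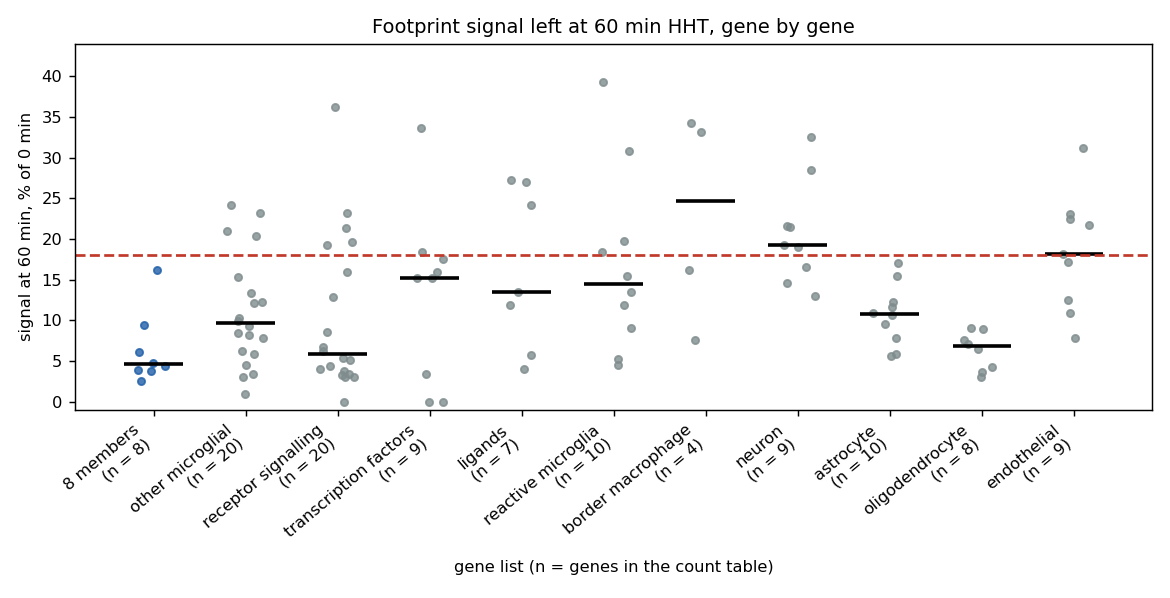
Signal left at 60 min of HHT (percent of 0 min) for each gene with counts in the 8 members and 10 other lists; black bars are list medians, and the dashed line is the median of all 10329 genes, 18.1%. The members lie between 2.51% and 16.2% with a median of 4.58%, the receptor signalling list has a median of 5.85% with Kcnk13 at 36.3%, and the oligodendrocyte list has a median of 6.83%.

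The genes most like the members were sought by the distance between 4 TMM log2 folds of each gene and the members' median profile (-1.48, -1.62, -1.95 and -1.97, over the 7 members with at least 30 counts at 0 min). Csf1r (-0.10) and Itgam (0.29) were themselves not near that profile at 5 min, so likeness at that time is to the shorter members. Among 7028 other genes with at least 100 counts at 0 min, the nearest was Olig2, a transcription factor of the oligodendrocyte lineage, at a distance of 0.10 log2 units. It had counts of 292, 32, 21, 15 and 12 and kept 11.4%, 8.68%, 5.83% and 4.22%. The next were Zfp36, an mRNA decay factor (0.42), Aldh1a1, a retinoic acid enzyme (0.45), Sox9, an astrocyte transcription factor (0.45), and Ptbp1, a splicing regulator (0.48). The 5 genes had 292 to 1219 counts at 0 min and CDS of 960 to 1590 nt, and likeness here is over 5 libraries that share 1 control.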

How the data were processed

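Footprints of 5 libraries (1 per time) were analysed. The mm10 build and TopHat2 2.0.9, Bowtie2 2.1.0, SAMtools 0.0.19, Trimmomatic 0.32 and cutadapt 1.7.1 are named, with no roles, per the submitters' processing notes. The authors deposited expected counts per gene (RSEM, per the names of the data; whole numbers, unchanged by rounding) for genes with a CDS of at least 603 nt. Each of these genes also had at least 11 counts at 0 min and at least 1 at 5 min. Medians and shares over all genes therefore leave out genes with fewer counts at those times. Their deposited signal equals the count per kb of CDS less 600 nt, divided by 1 factor per library (1, 0.965, 0.828, 0.882 and 0.973 in time order, origin not given). The deposited ratio divides that signal by its 0 min value and is printed here as percent left. The deposited score of fractions lost was not used. The deposited TPM score is rounded to whole numbers. The other deposited column is the CDS length.

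Slopes were fitted with edgeR 4.0.16 in R 4.3.3 (TMM or deposited factors; mean of at least 10 counts; adjusted p under 0.05; 3 residual degrees of freedom). The test was checked on simulated data. DESeq2 1.42.0 and limma 3.58.1 were alternatives. TMM log2 folds used a prior count of 2, and intervals are exact 95% (conditional binomial for ratios, Poisson for levels). Named genes were the members, the 2 lowest and 2 highest genes of a list at 60 min, binding partners and ligands, and the 5 nearest profiles. The members and lists were chosen with earlier results of these data known.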

Additional observations from a re-analysis of the deposited data

How the results depend on the processing

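The count of members called lower on the TMM-scaled slope was 0 under no filter, minutes in place of log2 time, RLE scaling and limma on log2(TPM + 1) or log2(TPM + 0.1), and 2 with DESeq2, which called 37 of 9444 genes lower and 36 higher. Leaving out 1 library gave 0 to 2, with 2 (Csf1r and Itgam) without the 0 min library, when 864 genes were called lower and 316 higher, against 1 lower with all libraries. On the deposited library factors Csf1r and Itgam were called lower, as were 8900 of 9444 genes. The 4 other tested members passed the filter only through 0 min and are not counted here. Both stayed called with no filter (9556 of 10329 genes) and with 6 mitochondrially encoded genes as the scale (8872 of 9444). On minutes Csf1r was called and Itgam was not (24 of 9444). Both stayed called without the 0 min library (4154 of 9444) and without any 1 of the later libraries (8392 to 9092 of 9444). Leaving out 1 library, the slope of P2ry12 ranged from -0.47 to 0.71 with TMM and from -0.91 to 0.47 with deposited factors, and that of Cx3cr1 with TMM from -0.47 to 0.060. The positive values are those without the 0 min library (adjusted p = 0.0543, 0.107 and 0.858). Without it the TMM slopes of Trem2, Selplg and Itgam went from -0.51, -0.35 and -0.41 to -0.16, -0.21 and -0.79. The cause was not tested. The median log2 fold of the members at 60 min was -1.89 with TMM and -1.77 to -2.09 under the prior count of 0.5, RLE scaling, log2(TPM + 1), members with at least 100 counts, and, chosen after the data were seen, without Csf1r or without Trem2 and Tmem119. With the deposited factors it was -3.87, where that of all genes was -2.35. Among values of single members, 126 kept their direction and side of the threshold or stayed within their interval, 8 lost a call, 4 gained one, 5 moved and 3 reversed. These totals include the 4 members that passed the filter only through 0 min. No paired analysis was possible because each time point has 1 library. Depth limits Tmem119, Gpr34 and Trem2 most, with at most 50 counts at 0 min and 0 to 5 later.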
